A study of Mus musculus with 6 samples.

Results

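The cytosolic ribosomal protein genes were taken as the mRNAs whose symbol is Rpsa or has the form Rps, Rpl or Rplp followed by a number, with or without one of the endings a, x, l, al, l1 or rt. The rule found 83 of the 11609 mRNAs listed, 51 of the large subunit (Rpl and Rplp) and 32 of the small subunit (Rps), and it used no measured value. Of these, 82 passed the filter on low values and were tested. The other, Rpl3l, is a copy of Rpl3 known from striated muscle, and it was listed at 1.05, 0.917 and 1.19 FPKM with DMSO and at 0.862, 0.667 and 0.917 FPKM with RSL3. FPKM is a count of fragments scaled by transcript length and by the library's mapped fragments, so levels can be compared between genes per length.

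The cells were N2a, a mouse neuroblastoma line. Both groups had first been differentiated with 10 µM retinoic acid for 96 h in medium with 2% serum, and a cell was counted as differentiated by the length of its axon. Then 3 libraries were made from cells given 5 µM RSL3 for 24 h and 3 from control cells given the matching amount of its solvent, DMSO. RSL3 is an inhibitor of GPX4, the glutathione peroxidase that removes lipid peroxides, and it was used to induce ferroptosis, a form of cell death driven by lipid peroxidation. The labels do not tell if replicate libraries are separate cultures, so each p-value measures a difference only against the spread between these libraries.

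Each cytosolic ribosome joins a small subunit, which reads the mRNA, to a large subunit, which forms peptide bonds, and nearly all of their proteins are needed in equal number. Ribosomal protein mRNAs are abundant, stable and short, and most begin with a terminal oligopyrimidine (TOP) tract, a cytosine followed by a run of pyrimidines. This tract places their translation under mTORC1 and the RNA-binding protein LARP1, so that the synthesis of these proteins can change while the mRNA level does not. Levels of mRNA, as measured here, do not report translation.

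Start sites are shown for 8 members, with and without such a tract: a stalk gene, copies of other members and typical genes of both subunits. The sequences are from RefSeq on GRCm38.p6, where 63 of the 83 members matched with 75 starts. Each runs 5′ to 3′ on the transcribed strand over 30 bases, 15 on each side of the annotated start, and capitals mark the longest run that has a C followed by at least 5 pyrimidines.
Rpl38 (chr11:114668565-114668594, plus strand): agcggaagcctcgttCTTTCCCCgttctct
Rpl35 (chr2:39005117-39005146, minus strand): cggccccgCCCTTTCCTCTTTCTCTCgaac
Rplp2 (chr7:141447636-141447665, plus strand): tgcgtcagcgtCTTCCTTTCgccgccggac
Rps27 (chr3:90213634-90213663, minus strand): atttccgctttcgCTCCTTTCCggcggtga
Rps27rt (chr9:114982725-114982754, minus strand): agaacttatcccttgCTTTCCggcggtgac
Rpl22l1 (chr3:28805493-28805522, plus strand): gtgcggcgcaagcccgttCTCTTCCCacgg
Rpl7l1 (chr17:46782642-46782671, minus strand): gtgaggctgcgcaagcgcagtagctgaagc
Rpl27 (chr11:101442230-101442259, plus strand): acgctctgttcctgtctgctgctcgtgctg
Rpl7l1 and Rpl27 have no capitals because no such run was found within 20 bases of their starts. Within 20 bases of a start, a C followed by at least 5 pyrimidines stood on the transcribed strand of 42 of the 63 members (66.7%), of 37.7% of the mitochondrial ribosomal protein genes and of 32.8% of the 27025 genes of the table. On the opposite strand the shares were 15.9%, 30.4% and 35.7%. The letters CTTTC stood within 20 bases of the start on the transcribed strand of 31.7% of the members and of 6.44% of all genes. The letters CCGGAAG, a core of sites for ETS-family factors, stood on either strand of the 300 bases around the start in 39.7% of the members, 37.7% of the mitochondrial ribosomal protein genes and 9.93% of all genes. A match describes these letters and does not show that a factor or a tract acts there.

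The summed FPKM of all mRNAs was 220605 to 225295 with DMSO and 200135 to 213765 with RSL3. Read depth is unknown, because FPKM does not keep it. Of 10 neuronal and neuroblast markers 7 were listed and Dcx, Nefl and Nefm were not. The neuronal tubulin Tubb3 stood at 115 to 117 FPKM in the DMSO libraries. Of the 6 that were tested, 3 fell under RSL3, and the summed marker level was 222 to 227 FPKM with DMSO and 191 to 196 FPKM with RSL3. All 8 genes of a liver-type list (such as albumin, Alb) were listed although the cells are neuroblastoma cells, and all 8 fell, with a summed level of 60.3 to 86.3 FPKM with DMSO and 15.4 to 27.3 FPKM with RSL3. Of the fibroblast, leukocyte and erythroid markers 1 of each list was given and none passed the filter. The fibroblast marker Col1a1 ranged from 0.448 to 4.39 FPKM with DMSO and from 0.140 to 0.641 FPKM with RSL3, and the listed leukocyte and erythroid markers were at most 0.606 FPKM in any library. Of the glial markers only Mbp was tested. The lncRNA entries Gm26917 and Gm42418, which are known to overlap a ribosomal RNA repeat, summed to 18793, 21141 and 22979 FPKM with DMSO and to 33129, 26639 and 29802 FPKM with RSL3. Whether any of these differences has a part in the values of the members was not tested. In bulk RNA, fewer cells of a kind and less RNA per cell cannot be told apart.

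Ribosomal protein mRNAs were among the most abundant of the table. In DMSO their median level was 180 FPKM, against 7.41 FPKM over all tested mRNAs, and the medians of the large and the small subunit genes were 180 and 181 FPKM. Of the 83 members, 57 exceeded 100 FPKM, and members held 26 of the 100 highest places. The highest tested member stood 229-fold above the lowest, which is a copy of another member (Rpl22l1). Rpl8, a protein close to the peptidyl transferase centre, led with 1318 ± 44.7 FPKM (SD, n = 3). The next were Rps15 (825 ± 29.0 FPKM), which sits in the head of the small subunit, the stalk proteins Rplp1 (813 ± 37.4 FPKM) and Rplp0 (736 ± 13.2 FPKM), and Rpl32 (647 ± 34.5 FPKM), each as mean ± SD of 3 DMSO libraries. At the other end of the tested members stood the copy Rpl22l1 (5.75 ± 0.424 FPKM), the copy Rps27rt (10.8 ± 1.09 FPKM), Rpl29 (21.4 ± 1.39 FPKM) and Rpl35a (22.3 ± 2.16 FPKM). As the plot of levels shows, DMSO means ran from 5.75 to 1318 FPKM in the tested large subunit genes and from 10.8 to 825 FPKM in the small subunit genes.

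**Figure D1:**
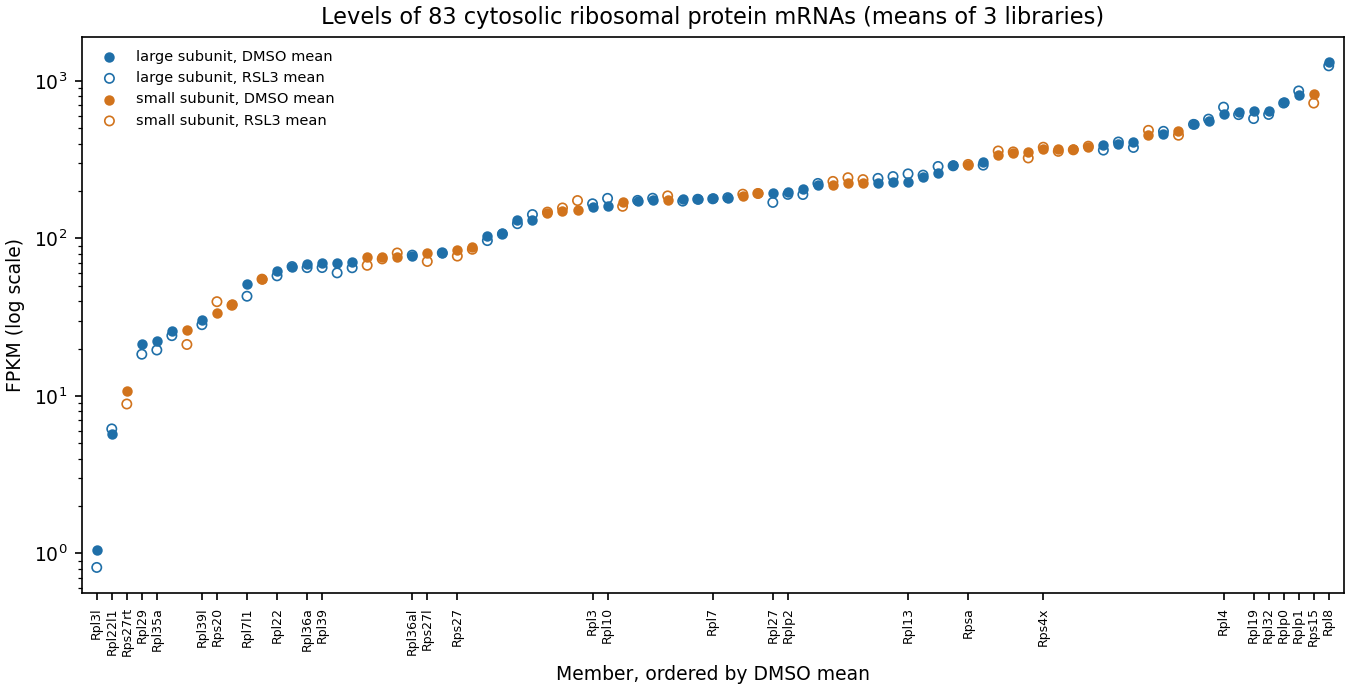
The members' mRNA levels in FPKM on a log axis, ordered by DMSO mean and with names for the members chosen by the naming rule, with a filled point for the mean of the 3 DMSO libraries and an open point for the mean of the 3 RSL3 libraries, and the subunit given by colour. DMSO means run from 5.75 FPKM (Rpl22l1) to 1318 FPKM (Rpl8) among the tested members, with the untested Rpl3l at 1.05 FPKM on the far left.

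Of the summed mRNA FPKM, the members made up 9.35%, 8.95% and 9.07% with DMSO and 9.69%, 9.67% and 9.78% with RSL3. Every RSL3 library therefore lay above every DMSO library on this share. The members' own summed level was 20402 ± 576 FPKM (SD, n = 3) with DMSO and 20263 ± 754 FPKM (SD, n = 3) with RSL3. The sum of all mRNAs, by which the share is divided, was lower in every RSL3 library than in every DMSO library. The large subunit share was 5.96% ± 0.153 with DMSO and 6.35% ± 0.0336 with RSL3 (SD, n = 3), and the small subunit share was 3.16% ± 0.0516 and 3.36% ± 0.0549 (SD, n = 3).

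RSL3 against DMSO was the main comparison, tested with limma over all 10590 mRNAs that passed the filter. No ribosomal protein gene passed the test: of 82 tested, 0 were higher and 0 were lower at an adjusted p under 0.05, while 676 of the 10590 mRNAs (6.38%) passed, 2.46% higher and 3.92% lower. With any 1 library left out, between 145 (without the third DMSO library) and 1299 (without the first RSL3 library) mRNAs passed. The smallest adjusted p of a member was 0.0796, for Rps20. An unadjusted p under 0.05 was found for 7 of the 82 members (8.54%), 5 of the large and 2 of the small subunit, and for 24.1% of all tested mRNAs. The log2 fold changes of the members, on the log2(FPKM + 1) scale, ran from -0.33 to 0.23 with a median of -0.0090, and the middle 50% of them from -0.096 to 0.044. Over all tested mRNAs the median was -0.031 and the middle 50% from -0.16 to 0.10. The medians of the large and the small subunit were -0.019 and 0.0012.

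The intervals of most members were narrow. The median half-width of the members' 95% intervals was 0.19 on the log2 scale. For 78 of the 82 tested members the whole interval on the log2(FPKM + 1) scale lay within a 1.5-fold change in either direction, and for all 82 within a 2-fold change. This scale understates the fold of low genes such as Rps27rt and Rpl22l1. The 4 members whose intervals reached beyond a 1.5-fold change were Rpl22l1, Rpl29, Rps18 and Rps27rt, whose DMSO means were 5.75, 21.4, 26.2 and 10.8 FPKM. A p that misses the threshold does not show that a gene was equal in both groups.

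**Figure D2:**
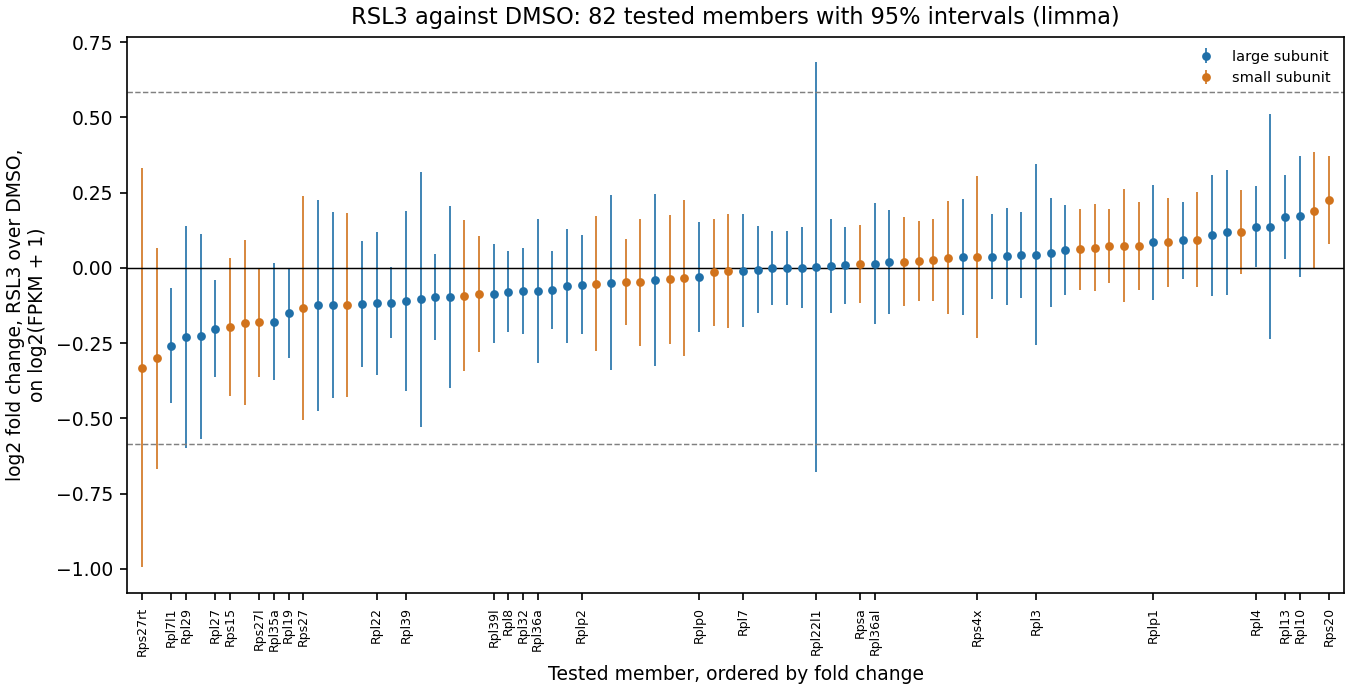
The log2 fold change (RSL3 over DMSO, log2(FPKM + 1) scale) of the 82 tested members with its 95% interval from limma, ordered by fold change and coloured by subunit, with names for the members chosen by the naming rule and with dashed lines at a 1.5-fold change either way. The values run from -0.33 (Rps27rt) to 0.23 (Rps20), and none of the 82 passed the adjusted threshold.

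The groups of 3 libraries did not overlap for 17 of the 82 tested members (20.7%), against 33% of all tested mRNAs, 6 with RSL3 above and 11 with RSL3 below. RSL3 lay above in Rpl4, Rpl12, Rpl13, Rps7, Rps20 and Rps27a, and below in Rpl7l1, Rpl8, Rpl14, Rpl15, Rpl19, Rpl27, Rpl32, Rpl35, Rpl35a, Rps15 and Rps27l. By subunit these were 12 of 50 large (24%) and 5 of 32 small subunit genes (15.6%). Against the 13.4% of mRNAs above and 19.6% below, neither direction was commoner among the members than in the table as a whole.

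Among small subunit genes, Rps20, a protein of the subunit's head, stood at 35.0, 34.1 and 32.3 FPKM with DMSO and at 38.7, 41.6 and 38.7 FPKM with RSL3. The RSL3 libraries were all above the DMSO libraries. Its log2 fold change was 0.23 (SE 0.063, adjusted p = 0.0796), the largest increase among the members and the one that came closest to the threshold. Rps15 stood at 858, 808 and 807 FPKM with DMSO and at 621, 751 and 798 FPKM with RSL3. Its RSL3 libraries all lay below the DMSO libraries but differed widely among themselves, and the log2 fold change of -0.20 had an adjusted p of 0.268. Rpsa, also known as the laminin receptor precursor, stood at 298, 290 and 289 FPKM with DMSO and at 290, 288 and 308 FPKM with RSL3, so the groups overlapped, and the log2 fold change was 0.01 (95% interval -0.12 to 0.14). Rps4x, the X-linked small subunit gene, stood at 357, 384 and 360 FPKM with DMSO and at 312, 422 and 405 FPKM with RSL3. Its RSL3 libraries lay on both sides of the DMSO range, with a log2 fold change of 0.04 (adjusted p = 0.884).

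Rps6, the small subunit protein that S6 kinases phosphorylate downstream of mTORC1, was chosen here for that role after its values were seen. It stood at 364, 373 and 370 FPKM with DMSO and at 336, 361 and 375 FPKM with RSL3, a log2 fold change of -0.05 (95% interval -0.19 to 0.10). The groups overlapped. Rpl5 and Rpl11, which bind and inhibit the p53 ligase MDM2 when ribosome assembly is disturbed, were chosen in the same way. Rpl11 stood at 182, 176 and 173 FPKM with DMSO and at 177, 180 and 174 FPKM with RSL3, and Rpl5 at 177, 184 and 170 FPKM with DMSO and at 139, 197 and 182 FPKM with RSL3. Their adjusted p-values were 0.998 and 0.852.

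Among large subunit genes, Rpl13 stood at 233, 226 and 227 FPKM with DMSO and at 270, 243 and 258 FPKM with RSL3, with all RSL3 libraries higher and a log2 fold change of 0.17 (SE 0.059, adjusted p = 0.141). Rpl4, which lines part of the peptide exit tunnel, stood at 623, 645 and 593 FPKM with DMSO and at 682, 691 and 672 FPKM with RSL3, again without overlap (log2 fold change 0.14, adjusted p = 0.203). Rpl10, a protein joined late in the maturation of the large subunit, had the largest increase of its subunit, 0.17, from 151, 175 and 153 FPKM with DMSO to 165, 194 and 180 FPKM with RSL3. These groups overlapped and the adjusted p was 0.268.

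The lower values of the large subunit included Rpl27, at 198, 201 and 185 FPKM with DMSO and at 182, 161 and 166 FPKM with RSL3, for a log2 fold change of -0.20 (SE 0.068, adjusted p = 0.127). Rpl19, which forms a bridge to the small subunit, stood at 669, 603 and 650 FPKM with DMSO and at 574, 595 and 562 FPKM with RSL3 (a log2 fold change of -0.15, adjusted p = 0.197). In both genes every RSL3 library lay below every DMSO library as deposited, but with quantile normalization the log2 fold change of Rpl19 turned to 0.13 (adjusted p = 0.275). The highest member, Rpl8, stood at 1357, 1269 and 1329 FPKM with DMSO and at 1252, 1233 and 1257 FPKM with RSL3, also without overlap, yet its log2 fold change was only -0.08 (adjusted p = 0.447). Rpl32 stood at 687, 624 and 631 FPKM with DMSO and at 616, 606 and 617 FPKM with RSL3 (adjusted p = 0.486). Among the low members, Rpl35a stood at 24.7, 21.8 and 20.5 FPKM with DMSO and at 19.0, 20.4 and 19.3 FPKM with RSL3 (adjusted p = 0.239), and Rpl29 at 21.2, 22.9 and 20.1 FPKM with DMSO and at 13.6, 20.5 and 21.1 FPKM with RSL3 (adjusted p = 0.422).

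The stalk of the large subunit, built of Rplp0, Rplp1 and Rplp2, recruits the elongation factors. Rplp0 stood at 721, 743 and 745 FPKM with DMSO and at 663, 710 and 798 FPKM with RSL3. Rplp1 stood at 856, 791 and 792 FPKM with DMSO and at 783, 868 and 940 FPKM with RSL3. Rplp2 stood at 199, 198 and 196 FPKM with DMSO and at 174, 194 and 203 FPKM with RSL3. In each of the stalk genes the first RSL3 library was the lowest of the 6 and the third RSL3 library was the highest. The log2 fold changes of Rplp0, Rplp1 and Rplp2 were -0.03, 0.08 and -0.06, and their adjusted p-values were 0.858, 0.583 and 0.676. With quantile normalization those of Rplp0 and Rplp2 turned to 0.22 and 0.083, also without passing the threshold.

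Several members are copies of another ribosomal protein gene, and reads of near-identical copies can be split uncertainly between them. Rpl7l1, a homologue of Rpl7 that acts in assembly of the large subunit, had the largest decrease of that subunit. It stood at 51.9, 50.6 and 51.8 FPKM with DMSO and at 38.3, 43.8 and 46.8 FPKM with RSL3, all lower with RSL3, with a log2 fold change of -0.26 (SE 0.081, adjusted p = 0.106). Its parent Rpl7 stood at 190, 180 and 168 FPKM with DMSO and at 162, 186 and 187 FPKM with RSL3, with overlapping groups and a log2 fold change of -0.01. The difference between the changes of the 2 genes was not tested.

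Rpl22l1, which can replace Rpl22 in the ribosome, stood at 6.16, 5.77 and 5.31 FPKM with DMSO and at 3.01, 7.80 and 7.72 FPKM with RSL3. The first RSL3 library was the lowest of the 6 and the others were the highest, and the log2 fold change was 0.00 (95% interval -0.68 to 0.68). Without the first RSL3 library it was 0.38 and passed the threshold (adjusted p = 0.0261). Rpl22 stood at 63.6, 62.7 and 61.2 FPKM with DMSO and at 49.3, 65.6 and 58.8 FPKM with RSL3 (a log2 fold change of -0.12, adjusted p = 0.529).

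The Rps27 family holds Rps27, Rps27l, a gene known as a p53 target, and Rps27rt, whose 374-base transcript fills its whole gene span. Rps27l stood at 85.7, 79.0 and 78.3 FPKM with DMSO and at 65.0, 76.0 and 73.4 FPKM with RSL3, with every RSL3 library lower (log2 fold change -0.18, SE 0.077, adjusted p = 0.207). Rps27 stood at 92.8, 73.9 and 85.2 FPKM with DMSO and at 59.7, 91.2 and 80.9 FPKM with RSL3, with overlapping groups (log2 fold change -0.13, adjusted p = 0.657). Rps27rt stood at 11.6, 11.3 and 9.53 FPKM with DMSO and at 4.73, 12.2 and 9.72 FPKM with RSL3. Its log2 fold change of -0.33 (SE 0.28, adjusted p = 0.524) was the largest decrease among the members, and it rested on the first RSL3 library: without that library it was 0.020.

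The pairs Rpl36a with Rpl36al and Rpl39 with Rpl39l showed no separation of the groups. Rpl36a stood at 74.0, 69.6 and 62.5 FPKM with DMSO and at 60.7, 74.5 and 60.7 FPKM with RSL3. Rpl36al stood at 86.1, 77.3 and 70.0 FPKM with DMSO and at 76.9, 82.7 and 75.5 FPKM with RSL3. Rpl39, which lies in the exit tunnel, stood at 71.9, 67.7 and 69.8 FPKM with DMSO and at 51.8, 72.6 and 71.6 FPKM with RSL3. Its testis-enriched copy Rpl39l stood at 31.4, 30.7 and 28.3 FPKM with DMSO and at 29.0, 26.8 and 29.2 FPKM with RSL3. The adjusted p-values were 0.701, 0.941, 0.651 and 0.506. Rpl3, the parent of Rpl3l, stood at 149, 168 and 161 FPKM with DMSO and at 133, 181 and 184 FPKM with RSL3 (adjusted p = 0.871).

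Processed pseudogenes add further near-identical sequence. In GENCODE M21, 73 of the 83 members had at least 1 of 13523 pseudogene models at 95% identity or more over 200 bases or more. The total was 571 copies, with a median of 4 and a maximum of 60, for Rpl21. Across the 82 tested members, Spearman's rho between the number of copies and the DMSO level was 0.0018, and between the number of copies and the log2 fold change it was 0.081. The mRNA table itself gave 6 entries with pseudogene names. The highest, Rpl10-ps3, stood at 46.5 FPKM in DMSO, 29.2% of the level of Rpl10, and Rps12-ps3 stood at 15.7% of the level of Rps12. Members also hold small nucleolar RNA genes in their introns, 56 in 29 of the members.

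Each library was then set against the DMSO mean, gene by gene. As deposited, the median difference over the 82 tested members was 0.042, -0.016 and -0.029 with DMSO and -0.10, 0.052 and 0.012 with RSL3, on the log2 scale. The first RSL3 library lay below every DMSO library, the second above every one of them, and the third between them. Over all tested mRNAs the same medians were -0.0028, 0.024 and -0.019 with DMSO and -0.098, 0.0055 and 0.0099 with RSL3. Of the 82 tested members, 68, 30 and 22 lay above the DMSO mean with DMSO, and 23, 53 and 47 with RSL3. The spread of the members was wider in the RSL3 libraries, with SDs over the members of 0.24, 0.12 and 0.12 against 0.062, 0.058 and 0.056 in the DMSO libraries, which are themselves part of the mean they are set against.

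The medians of the large and the small subunit lay close to each other in every library. The large subunit medians were 0.044, -0.015 and -0.031 with DMSO and -0.10, 0.052 and 0.0090 with RSL3. The small subunit medians were 0.035, -0.024 and -0.027 with DMSO and -0.094, 0.051 and 0.023 with RSL3. Within a library the subunits differed by between -0.014 and 0.0092. The order of the 6 libraries was the same for both subunits.

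**Figure D3:**
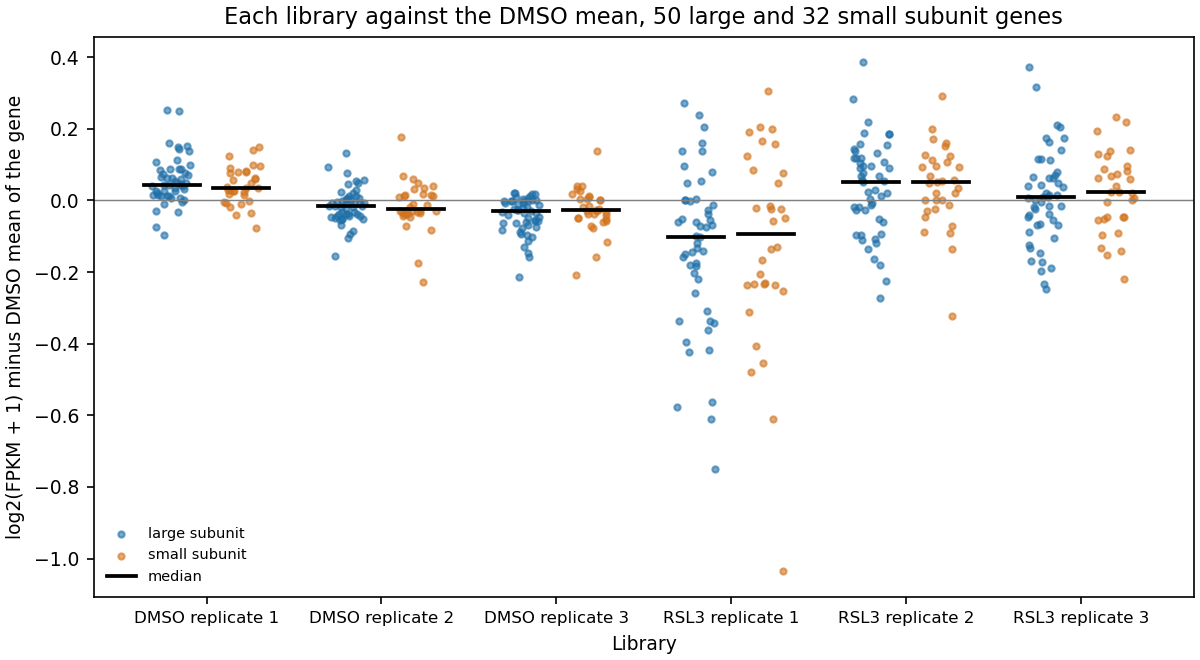
The difference of each tested member from its DMSO mean in each of the 6 libraries (log2(FPKM + 1) scale), with a point for each gene and a black line at the median, large and small subunit side by side; horizontal offsets only separate the points. The medians of the first RSL3 library are -0.10 (large) and -0.094 (small), and its points are the most widely spread.

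The sign of the members' median log2 fold change depended on how the libraries were scaled. As deposited it was -0.0090, and the members' library medians varied with an SD of 0.062, pooled within the groups. Median-ratio scaling gave log2 fold change medians of 0.017 for the large and 0.037 for the small subunit, and an equal sum of mRNA FPKM gave 0.079 and 0.10. An equal sum of the other mRNAs, without members and mitochondrially encoded genes, gave 0.076 and 0.098, and quantile normalization gave 0.12 and 0.13. Removing a trend on transcript length and GC content from each library gave 0.040 and 0.055. In these 5 scalings both subunit medians were above 0, whereas as deposited they were -0.019 and 0.0012. The large minus small subunit difference of these medians stayed between -0.022 and -0.015 in the same settings. Over all tested mRNAs the median moved as well. It was -0.031 as deposited, -0.00032 with median-ratio scaling, 0.053 and 0.050 with the equal sums, -2.7e-05 with quantile normalization and -0.00056 with trends removed. In the same order the members' median was -0.0090, 0.027, 0.088, 0.085, 0.12 and 0.044, each time above that of all tested mRNAs. These scalings all use the same libraries. As deposited but without the second DMSO library, the members' median was -0.022, below the -0.021 of all tested mRNAs. By library as deposited, the members' median minus that of all tested mRNAs overlapped between the groups. It was 0.045, -0.040 and -0.0095 with DMSO and -0.0035, 0.046 and 0.0024 with RSL3.

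Calls among the members followed the scaling. With an equal sum of mRNA FPKM, and also with an equal sum of the other mRNAs, Rps20 rose (log2 fold change 0.32 in both, adjusted p = 0.0234 and 0.0246), 1 of 82 members (1.22%) where 7.18% of all mRNAs were called with an equal sum of mRNA FPKM and 4.7% were called higher. With quantile normalization 7 of 82 (8.54%) rose and none fell, namely Rpl4, Rpl7a, Rpl13, Rpl17, Rpl23a, Rps20 and Rps27a, where 6.43% of all mRNAs were called and 3.3% were called higher. Those shares cover mRNAs of all levels (DMSO median 7.41 FPKM, against 180 FPKM for the members). Other mRNAs of like level were not counted apart. With the length and GC trends removed 4 of 82 (4.88%) rose and none fell, namely Rpl10, Rpl13, Rpl37a and Rps27a, where 16.3% of all mRNAs were called and 7.13% were called higher. Over all mRNAs the same choice moved the split of calls from 261 higher and 415 lower to 498 and 262 (equal sum), 550 and 269 (equal sum of the others) and 349 and 332 (quantile). No member fell in any of these scalings, and the median of the first RSL3 library over the members lay between -0.0041 and 0.0997 in them, against -0.10 as deposited.

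**Figure D4:**
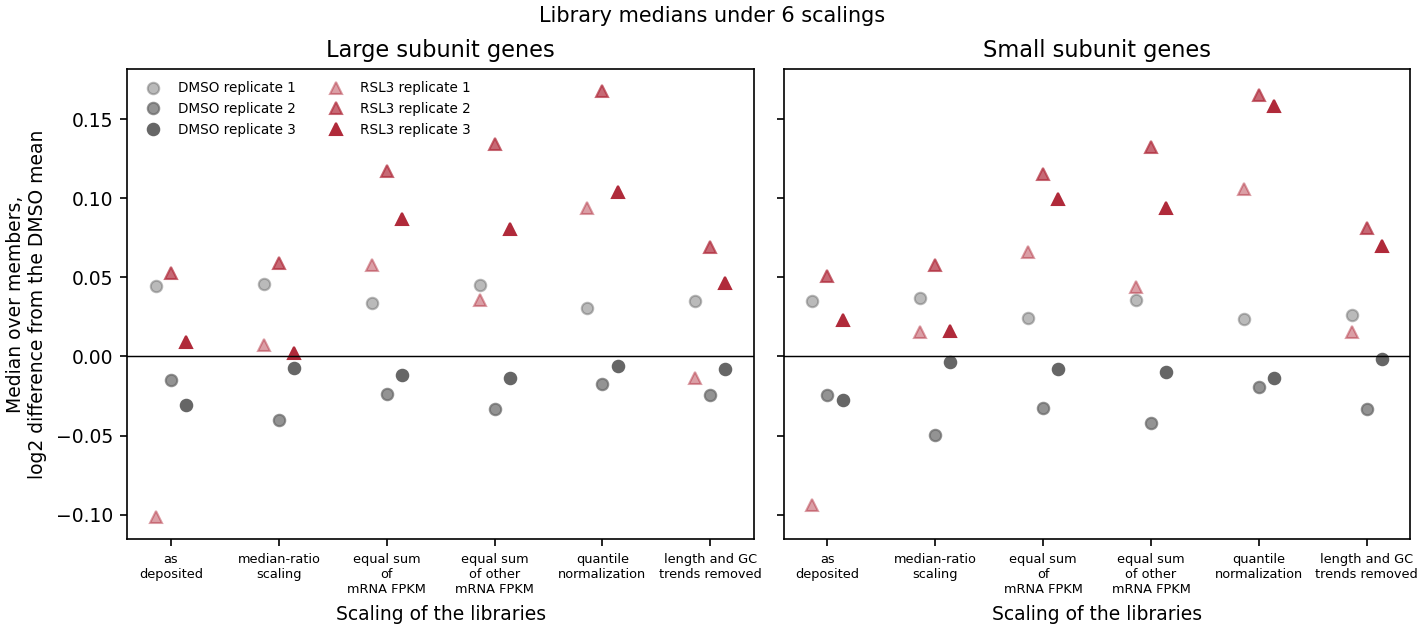
The median difference from the DMSO mean over the large (left) and small (right) subunit genes in each of the 6 libraries under 6 scalings of the libraries (log2(FPKM + 1) scale). As deposited the RSL3 libraries lie on both sides of 0, and with quantile normalization all 3 lie above every DMSO library, between 0.094 and 0.17 for the large subunit.

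The first RSL3 library stood apart from the other RSL3 libraries, so its effect is given here. It was the lowest of the 6 libraries for 44 of the 82 tested members (53.7%, 26 large and 18 small subunit genes), against 41.9% of all tested mRNAs, and the highest for 13 (15.9%), against 19.5%. The difference between this library and the mean of the other RSL3 libraries had a median of -0.13 over the members and -0.085 over all tested mRNAs, and ran from -1.13 (Rpl22l1) to 0.25. It was below 0 for 59 of the members. Without this library, Rps20 (log2 fold change 0.24, adjusted p = 0.0456) and Rpl22l1 (0.38, adjusted p = 0.0261) rose and Rpl27 fell (-0.25, adjusted p = 0.0319), 3 of 82 members (3.66%) where 12.3% of all mRNAs were called. With any one of the other 5 libraries left out, no member was called.

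This difference was more often negative in members of low GC content. In the members with the lowest GC content (39.8 to 49.5%, 27 genes) the median difference was -0.25 and 23 genes were below 0. In the middle group (49.6 to 54.2%, 28 genes) it was -0.12 with 22 below 0, and in the highest group (54.3 to 60.8%, 27 genes) it was -0.0014 with 14 below 0. Across the 82 members, which share these 6 libraries, Spearman's rho with GC content was 0.32, and over 10558 mRNAs it was 0.70. For the members' log2 fold change between the groups, rho with GC content was 0.11. Members' transcripts were short, with a median of 696.5 bases against 2113.75 over all tested mRNAs, while their median GC content of 51.6% was close to the 51.2% of all.

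**Figure D5:**
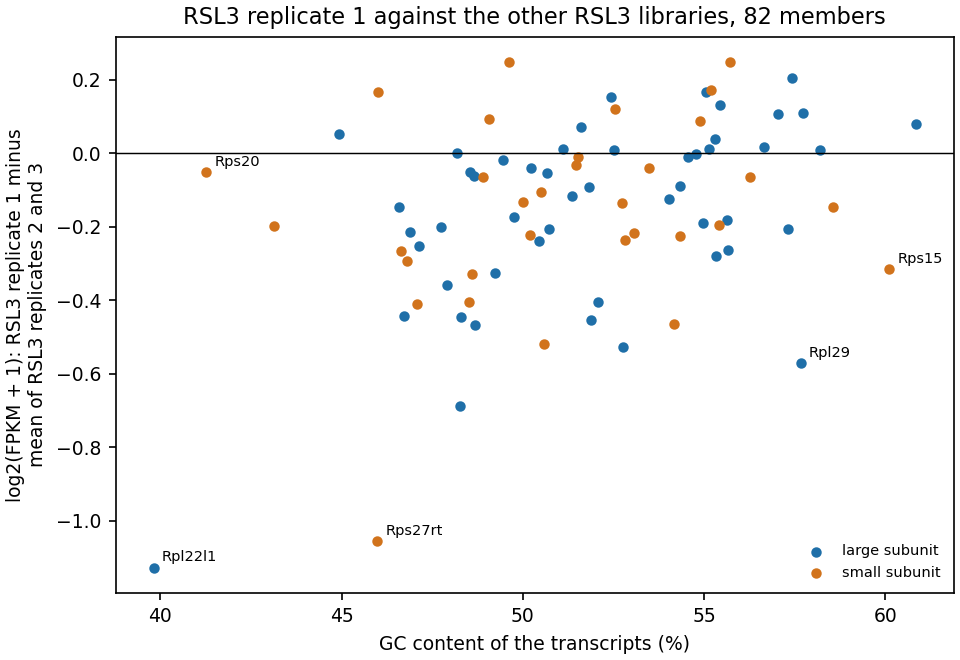
The difference of the first RSL3 library from the mean of the other RSL3 libraries (log2(FPKM + 1) scale) against the GC content of the transcript in percent, with a point for each of the 82 tested members. The scatter is wide: Rpl22l1, the member of lowest GC content, lies lowest at -1.13, while Rps20, also of low GC content, lies at -0.051 and Rpl29, of high GC content, at -0.57.

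Members with and without the pyrimidine tract at the start were then set side by side. The 42 tested members with a tract had a median log2 fold change of -0.0076, and 18 of them were above 0. The 20 tested members without one had a median of -0.035, and 9 of them were above 0. A member was counted as without a tract if none stood within 20 bases of its RefSeq starts, so a tract at another start is missed. For Rpl27 the GENCODE gene start (101442298) lies outside the window shown. Their median DMSO levels were 179 and 155 FPKM. Values such as those of Rpl35 (414, 405 and 410 FPKM with DMSO, 381, 373 and 381 FPKM with RSL3) and Rpl38 (427, 381 and 379 FPKM with DMSO, 442, 396 and 391 FPKM with RSL3) show members with a tract on both sides of 0. Their log2 fold changes were -0.12 and 0.05, with adjusted p-values of 0.219 and 0.741.

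Rps27a, which encodes ubiquitin fused to a small subunit protein and is a member, stood at 229, 230 and 212 FPKM with DMSO and at 236, 250 and 244 FPKM with RSL3, with every RSL3 library higher (log2 fold change 0.12, adjusted p = 0.266). Ribosomal proteins with symbols outside the rule were read beside the members. Rps3a1 stood at 259, 254 and 237 FPKM with DMSO and at 163, 291 and 252 FPKM with RSL3 (adjusted p = 0.740). Fau, which fuses a ubiquitin-like protein to a small subunit protein, stood at 369, 369 and 365 FPKM with DMSO and at 375, 348 and 359 FPKM with RSL3. Rack1, a signalling scaffold on the small subunit, stood at 174, 174 and 174 FPKM with DMSO and at 165, 181 and 195 FPKM with RSL3.

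Other mRNAs and regulators that act with the ribosome were counted from lists. Of 23 other TOP-type mRNAs (elongation factors and the like) 0 passed the limma threshold, 2 had an unadjusted p under 0.05, and the median log2 fold change was 0.025. Of 8 dedicated ribosomal protein chaperones 0 passed, 2 had an unadjusted p under 0.05, and the median was -0.15. Of 32 initiation factors 2 fell and none rose, near the 6.38% of all tested mRNAs that passed, with a list median of -0.11. Eif5a, the hypusine-bearing factor that helps ribosomes past difficult peptide bonds, went from 262, 265 and 248 FPKM with DMSO to 192, 183 and 190 FPKM with RSL3 (a log2 fold change of -0.45, SE 0.056, adjusted p = 0.00679). Eif4g1, the scaffold of the cap-binding complex, went from 110, 112 and 114 FPKM to 92.5, 88.9 and 90.9 FPKM (log2 fold change -0.30, SE 0.052, adjusted p = 0.0197), but under median-ratio scaling the adjusted p of this gene was 0.0608. Without the first RSL3 library 5 initiation factors passed, where 12.3% of all tested mRNAs did, and without any 1 of the DMSO libraries or the third RSL3 library 1 did.

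Of 19 regulators around mTORC1, LARP1 and MYC 1 fell and none rose, again near the share of all tested mRNAs that passed (6.38%), with a median of -0.096. That gene was Mycn, a MYC-family factor. It went from 5.98, 5.74 and 5.76 FPKM with DMSO to 3.45, 3.17 and 3.68 FPKM with RSL3 (a log2 fold change of -0.62, SE 0.081, adjusted p = 0.00836). Without the third DMSO library its adjusted p was 0.0517. Myc, of the same list, had a higher level and was not called. It stood at 71.0, 66.6 and 67.8 FPKM with DMSO and at 67.9, 58.3 and 58.7 FPKM with RSL3. These groups overlapped (log2 fold change -0.15, adjusted p = 0.264). Of 17 genes that handle stalled ribosomes 1 fell and none rose, also near that share, with a median of -0.055. It was Gtpbp1, a translational GTPase, at 46.3, 46.2 and 47.8 FPKM with DMSO and 36.9, 36.9 and 39.8 FPKM with RSL3 (a log2 fold change of -0.30, adjusted p = 0.0306), and its adjusted p was 0.0960 with an equal sum of mRNA FPKM. It passed no longer when any 1 library other than the first RSL3 library was left out, and without that library 3 genes of the list passed. Of the mTORC1, LARP1 and MYC list 2 passed without the first RSL3 library and 2 without the second.

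The 78 mitochondrial ribosomal protein genes, which make up the separate ribosome of mitochondria, had a median log2 fold change of -0.16, against -0.0090 for the 82 cytosolic members and -0.031 for all tested mRNAs. Their groups did not overlap in 36 genes, 4 with RSL3 above and 32 with RSL3 below, where 33% of all tested mRNAs did not overlap, 13.4% above and 19.6% below. By the adjusted p, 1 of 78 fell and none rose, where 6.38% of all tested mRNAs passed. Without the first RSL3 library 12 of 78 passed, where 12.3% of all tested mRNAs did, and without the second 3 passed. Mrps28, of the small mitochondrial subunit, went from 34.3, 35.5 and 35.5 FPKM with DMSO to 24.6, 24.5 and 25.5 FPKM with RSL3 (a log2 fold change of -0.48, SE 0.057, adjusted p = 0.00562). The difference between the cytosolic and the mitochondrial list was not tested.

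Host lncRNAs of small nucleolar RNAs often start with the same kind of tract. Of 16 in a list 13 were listed and tested, and 0 passed the limma threshold over 798 lncRNAs, of which 0 passed. An unadjusted p under 0.05 was found for 4 of the 13, against 11.9% of all tested lncRNAs. Snhg5 stood at 47.0, 41.9 and 45.2 FPKM with DMSO and at 20.5, 27.2 and 29.1 FPKM with RSL3, a log2 fold change of -0.81 on the log2(FPKM + 0.5) scale (adjusted p = 0.103). Epb41l4aos stood at 48.5, 50.6 and 47.1 FPKM with DMSO and at 66.4, 69.4 and 72.2 FPKM with RSL3, a log2 fold change of 0.50 (adjusted p = 0.103). Gas5 stood at 24.2, 20.5 and 23.6 FPKM with DMSO and at 12.3, 23.1 and 20.2 FPKM with RSL3 (adjusted p = 0.544). The list median was -0.15, against 0.013 over all tested lncRNAs, and single hosts lay on both sides of it.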

How the data were processed

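Poly(A)-selected RNA was sequenced with a stranded kit, per the labels' protocols. The FPKM values of mRNAs and lncRNAs are the authors' deposited values. Per the submitters' processing notes, the tools were HISAT2, cutadapt and StringTie 1.3.3 on GRCm38. The authors' annotation release and filters: not given in the sources used here. In every gene listed the larger group mean was at least 0.5 FPKM. The circRNA files were not used here.

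RSL3 was compared with DMSO (3 libraries each) by limma 3.58.1 in R 4.3.3, using a two-sided test with a trend of variance on level, on log2(FPKM + 1) of mRNAs reaching 1 FPKM in 3 or more of the 6 libraries. For lncRNAs the test used log2(FPKM + 0.5) and a minimum of 0.5 FPKM. P-values were adjusted by Benjamini and Hochberg over all tested genes of a kind, with a threshold of 0.05. Fold changes on these scales understate the change of low genes. Intervals are 95% intervals of the fit and standard errors (SE) are limma's. The fit was tested on simulated data. Transcript lengths, GC content and gene positions came from GENCODE M21, pseudogene copies from BLAST+ 2.17.0, and start sequences from RefSeq (GRCm38.p6). Lists have no test of their own.

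The members, lists and tests were chosen with earlier results of these data known. Named members are the 5 highest and 5 lowest by DMSO level, the largest change each way in each subunit, the stalk genes and Rpsa, copies with their parents, and the called genes of related lists; members with an unadjusted p under 0.05, other members whose groups did not overlap, members called under another scaling, Rps6, Rpl5, Rpl11, Rpl35, Rpl38 and the lncRNAs were named after their values were seen. The alternatives were other pseudocounts and filters, 5 scalings, a fit without the variance trend, a replicate block and leaving out each library. Myc was also named after its values were seen. Some genes are counted but not reported by name here.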

Additional observations from a re-analysis of the deposited data

How the results depend on the processing

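Depth is unknown and each group has 3 libraries, which limits precision. No member was called under other pseudocounts, other filters, median-ratio scaling, a fit without the variance trend or the replicate block. The labels do not tell if the replicate numbers pair the libraries. The deviations of same-numbered libraries correlated at -0.15, 0.049 and -0.062. With 3 libraries in each group, these values cannot decide if same-numbered libraries shared a culture or batch. With the number as a replicate block 253 mRNAs were called (676 without), 1 initiation factor, 0 genes of stalled ribosome handling and no member. Where a value changed below, the cause was not tested.

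Members called were 1 (Rps20, small subunit) with an equal sum of mRNA FPKM, 1 (Rps20) with an equal sum of the other mRNAs, 7 (5 large, 2 small) with quantile normalization and 4 (3 large, 1 small) with length and GC trends removed, which called 1724 mRNAs in all. In the same order, the large subunit medians were 0.079, 0.076, 0.12 and 0.040, and the small subunit medians 0.10, 0.098, 0.13 and 0.055. Without the filter on low values the large minus small subunit difference was -0.031 (-0.020 with it). The median of the first RSL3 library over the members was 0.0073 with median-ratio scaling, 0.058 and 0.036 with the equal sums, 0.0997 with quantile normalization and -0.0041 with trends removed. That of the second was 0.13 with an equal sum of the other mRNAs and 0.17 with quantile normalization, and that of RSL3 replicate 3 was 0.12 with quantile normalization. Without mitochondrially encoded genes the members' share was 9.69% with DMSO and 10.2% with RSL3. Initiation factors called numbered 1 with median-ratio scaling and 1 with quantile normalization, which called 0 genes of stalled ribosome handling and 2 mitochondrial ribosomal protein genes.

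Some log2 fold changes reversed, none of them past the threshold in either setting. With median-ratio scaling they were 0.0083 (Fau), 0.027 (Rpl7) and 0.0071 (Rplp0). With an equal sum of mRNA FPKM they were 0.045 (Rplp2), 0.073 (Fau), 0.012 (Rpl39l), 0.092 (Rpl7), 0.071 (Rplp0) and 0.024 (Rpl36a). With an equal sum of the other mRNAs they were 0.041 (Rplp2), 0.069 (Fau), 0.0089 (Rpl39l), 0.088 (Rpl7), 0.068 (Rplp0) and 0.020 (Rpl36a). With quantile normalization they were 0.13 (Rpl19), 0.083 (Rplp2), 0.049 (Rps3a1), 0.15 (Fau), 0.00020 (Rpl39l), 0.11 (Rpl7), 0.22 (Rplp0) and 0.0015 (Rpl36a). With trends removed they were 0.040 (Rpl39l), 0.084 (Rpl7) and 0.043 (Rpl36a), and with a pseudocount of 0.1 Rpl22l1 was at -0.016.

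With each library left out in turn, mRNAs called ranged from 145 (without DMSO replicate 3) to 1299 (without RSL3 replicate 1), members called from 0 to 3 (large 0 to 2, small 0 to 1, all without the first RSL3 library), and the large minus small subunit difference from -0.045 to -0.012. Calls ranged from 0 to 1 for other TOP-type mRNAs, 1 to 5 for initiation factors, 0 to 2 for mTORC1, LARP1 and MYC regulators, 0 to 3 for stalled ribosome handling and 1 to 12 for mitochondrial ribosomal proteins. The log2 fold changes that reversed ranged from -0.0069 to 0.11 (Rack1), -0.10 to 0.0077 (Rplp2), -0.30 to 0.12 (Rps3a1), -0.046 to 0.17 (Rps4x), -0.019 to 0.029 (Rpsa), -0.19 to 0.38 (Rpl22l1), -0.057 to 0.058 (Rpl7), -0.059 to 0.089 (Rpl36al), -0.58 to 0.020 (Rps27rt), -0.036 to 0.20 (Rpl3), -0.10 to 0.032 (Rplp0), -0.19 to 0.047 (Rpl39) and -0.26 to 0.039 (Rps27).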
